A study of Homo sapiens with 24 samples.

Results

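A group of 8 genes of cystine import and of glutathione synthesis, reduction and breakdown was followed in 4 human cancer cell lines treated with Ocoxin, a nutritional supplement that mixes plant extracts, vitamins, minerals and amino acids. The genes, SLC7A11, SLC3A2, GCLC, GCLM, GSS, GSR, CHAC1 and GGCT, were chosen by symbol from the 58051 genes of the count tables, and all 8 passed the filter on low counts in every cell line. The cell lines were the colorectal adenocarcinoma line SW620 (COAD), the pancreatic adenocarcinoma line BxPC-3 (PAAD), the prostate adenocarcinoma line LNCaP (PRAD) and the triple negative breast cancer line HCC-70 (TNBC). Each gave 3 control libraries and 3 libraries of cells kept for 48 h with Ocoxin, and the treatment medium held a reduced amount of serum. The dilution of Ocoxin was 50-fold for PRAD, 500-fold for PAAD and 700-fold for both TNBC and COAD, and the study had set it near the IC50 of each cell line. The dilution therefore differed between cell lines, RNA came from cells that still adhered, and 1 cell line stood for each tumor type. The study names cysteine as a component of the mixture, and a control with cysteine alone was not analysed here.

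Cystine, the oxidized dimer of cysteine, enters cells through system xc-, in which SLC7A11 is the exchanger that trades it for glutamate and SLC3A2, the CD98 heavy chain, carries the exchanger to the membrane. Glutamate-cysteine ligase, made of the catalytic subunit GCLC and the modifier subunit GCLM, catalyzes the limiting step of glutathione synthesis, and glutathione synthetase (GSS) then adds glycine. Glutathione reductase (GSR) returns oxidized glutathione to its reduced form. CHAC1 cleaves glutathione in the cytosol and is a known target of ATF4, a transcription factor of the integrated stress response, while GGCT releases oxoproline from gamma-glutamyl amino acids. SLC7A11, GCLC, GCLM and GSR are known targets of NRF2, which binds antioxidant response elements (ARE), and SLC7A11 and SLC3A2 are also known targets of ATF4.

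Promoter sequences are shown for CHAC1, GCLM and SLC3A2, the 3 genes whose response to Ocoxin differed between the cell lines in the test given further on. The RefSeq table (GRCh38.p14) held windows from 250 bases before to 50 after the start site for 4 of the 8 genes: CHAC1, GCLM, GCLC and SLC3A2, the last with 3 start sites. It held none for SLC7A11, GSS, GSR and GGCT. The letters searched on both strands were TGACNNNGC for the ARE core, TGATGNAA for the core of the CARE element that ATF4 and C/EBP proteins bind, and TGANTCA for the TRE that AP-1 binds, which can overlap the ARE core. Of 35116 RefSeq windows of this length, 13.3% held the ARE core, 3.62% the CARE core and 7.71% the TRE. The 250 bases before the start site are given 5′ to 3′ on the strand of the gene with the match in capitals, from chr15:40953221-40953470 (plus strand) for CHAC1, chr1:93909431-93909680 (minus strand) for GCLM and chr11:62881449-62881698 (plus strand) for SLC3A2.
CHAC1: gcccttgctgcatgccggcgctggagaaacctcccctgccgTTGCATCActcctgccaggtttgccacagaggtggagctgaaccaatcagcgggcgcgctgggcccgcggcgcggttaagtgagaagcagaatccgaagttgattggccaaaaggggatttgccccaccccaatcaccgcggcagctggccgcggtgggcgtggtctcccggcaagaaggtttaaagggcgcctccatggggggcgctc
GCLM: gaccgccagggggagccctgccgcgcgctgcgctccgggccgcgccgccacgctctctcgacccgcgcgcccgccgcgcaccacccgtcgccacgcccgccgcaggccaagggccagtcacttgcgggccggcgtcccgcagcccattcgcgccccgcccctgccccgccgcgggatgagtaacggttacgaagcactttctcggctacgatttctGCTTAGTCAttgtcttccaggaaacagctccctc
SLC3A2: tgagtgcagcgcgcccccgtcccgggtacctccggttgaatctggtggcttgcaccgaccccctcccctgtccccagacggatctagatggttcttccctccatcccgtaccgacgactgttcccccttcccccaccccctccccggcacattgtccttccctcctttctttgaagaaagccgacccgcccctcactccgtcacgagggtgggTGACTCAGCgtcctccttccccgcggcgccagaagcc
In CHAC1 the capitals mark the CARE core, read on the opposite strand, whose first base lies at -209 from the start site. In GCLM they mark the ARE core, read on the opposite strand, at -34. In SLC3A2 they mark the ARE core at -37, whose first bases also match the TRE, and a CARE core match lies at 37 bases after this start site, outside the printed bases. No match was found in the GCLC window or in those of the other 2 start sites of SLC3A2. These matches are letters in a window and were not measured as binding sites.

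Total counts were 9063968 to 9520969 in the PRAD libraries and 25160757 to 39009959 in the other 18, which were counted in another run in which a read pair mostly gave 2 counts. In COAD the control libraries had 31265452 to 34397801 counts and the Ocoxin libraries 25160757 to 29670036. Levels are given as CPM, counts scaled to a common library total after TMM normalization, and levels of different genes were compared only per kb of exons. Of the markers, VIL1 was at 469 to 527 CPM in COAD whereas CDX1 and KRT20 were at or near 0 there, KLK3 was at 377 to 410 CPM in PRAD, KRT7 at 969 to 1100 CPM in PAAD, and KRT5 at 1410 to 1670 CPM with PGR at 0 in TNBC. KRT5, a basal keratin listed for TNBC, was also at 2430 to 3310 CPM in PAAD. Among the other basal keratins listed, KRT17 was higher in PAAD (1670 to 2470 CPM) than in TNBC (146 to 282 CPM). KRT14 and KRT6B were higher in TNBC (71.6 to 106 and 204 to 401 CPM) than in PAAD (14.2 to 25.3 and 4.85 to 7.44 CPM). ESR1, an estrogen receptor gene expected to be low in TNBC, was at 5.51 to 8.18 CPM there, above its range in the other cell lines. Of the PAAD markers, KRT7 was also at 557 to 695 CPM in TNBC. MUC1 was higher in TNBC (281 to 384 CPM) than in PAAD (76 to 93.1 CPM). KRT19 overlapped between them, at 1130 to 1600 CPM in TNBC and 993 to 1420 CPM in PAAD. MUC4 and S100P were higher in PAAD (7.08 to 11.3 and 178 to 218 CPM) than in TNBC (0.892 to 1.77 and 99.4 to 123 CPM). The blood marker PTPRC reached at most 0.214 CPM. No label says that replicates were separate cultures, so the p-values measure the spread between these libraries. Fewer cells with a transcript and less transcript per cell cannot be told apart in such bulk libraries.

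Ocoxin upregulated 12 of the 32 combinations of gene and cell line and downregulated none, by the quasi-likelihood test of edgeR at a threshold of 0.05, with p-values adjusted by Benjamini-Hochberg over every gene tested in that cell line. These fits did not use the replicate numbers, and calls gained with them as a block are given beside each gene or in the closing sections. Without adjustment, 17 combinations rose and 0 fell at p under 0.05, and DESeq2 called 14 that rose and 0 that fell. In TNBC 4 of 8 rose, namely SLC7A11, GCLC, GCLM and CHAC1, where 9.65% of all genes tested rose and 21% were altered in either direction. In PRAD 3 of 8 rose, namely SLC7A11, GCLM and CHAC1, where 2.4% of all genes rose and 2.98% were altered. In PAAD 4 of 8 rose, namely SLC7A11, SLC3A2, GCLC and CHAC1, where 4.72% of all genes rose and 8.33% were altered. In COAD only CHAC1 of the 8 rose, where 1.47% of all genes rose and 2.55% were altered. With a change of at least 1.5-fold besides the threshold, 1 of 8 remained in TNBC, 3 in PRAD, 2 in PAAD and 1 in COAD, where 2.79%, 1.4%, 1.66% and 0.589% of all genes did. GSS, GSR and GGCT passed the test in no cell line. The 8 genes had a median log2 fold change of 0.33 in PRAD, 0.24 in PAAD, 0.19 in TNBC and 0.05 in COAD, while that of all genes tested lay between -0.0053 and 0.00879. Control and Ocoxin libraries did not overlap for 3, 5, 5 and 6 of the 8 genes in COAD, PAAD, PRAD and TNBC, where 20.6%, 27.5%, 27.6% and 38.1% of all genes tested did not overlap.

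**Figure D1:**
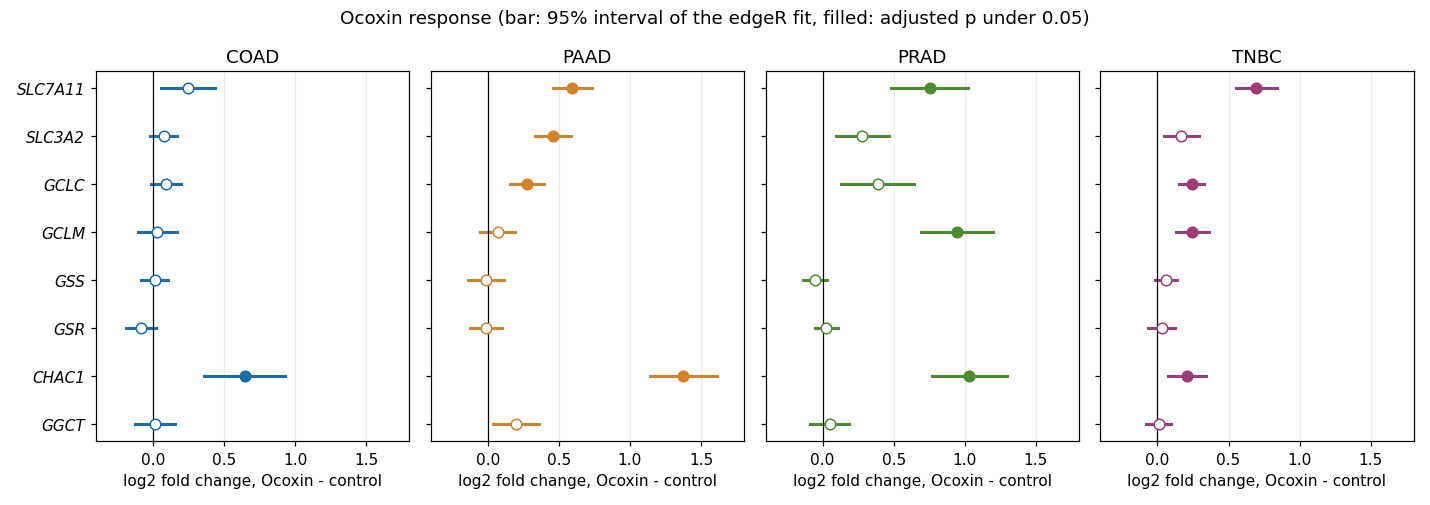
Log2 fold change of each gene (Ocoxin minus control, x axis) in each cell line, with the 95% interval of the edgeR fit of 3 against 3 libraries; filled points have an adjusted p under 0.05. CHAC1 is filled in each of the 4 panels, from 0.21 in TNBC to 1.38 in PAAD, and GSS, GSR and GGCT are filled in none.

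The exchanger of cystine import, SLC7A11 (ENSG00000151012, chr4:138164097-138242349, minus strand), was upregulated in PAAD, PRAD and TNBC. Its exons share 8.97% of their bases with the antisense gene SLC7A11-AS1, and the counting did not use the strand. In PAAD its controls had 188, 209 and 228 CPM and its Ocoxin libraries 327, 307 and 310 CPM. The log2 fold change there was 0.60 (SE 0.0654, edgeR adjusted p = 3.35e-05). In TNBC, at a lower level, the controls had 47.8, 44.2 and 42.2 CPM and the Ocoxin libraries 70.6, 67.8 and 79.0 CPM, a log2 fold change of 0.70 (SE 0.0654, edgeR adjusted p = 2.87e-05). The PRAD controls had 291, 283 and 213 CPM and the Ocoxin libraries 477, 446 and 402 CPM, a log2 fold change of 0.75 (SE 0.116, edgeR adjusted p = 0.025). In these 3 cell lines every treated library lay above every control. The PRAD call was lost without control replicate 2 (adjusted p = 0.0826), without Ocoxin replicate 1 (0.0732), without Ocoxin replicate 2 (0.106) and without the filter on low counts (0.118). In COAD, SLC7A11 was at 18.7, 19.1 and 15.6 CPM in controls and 23.4, 19.4 and 20.6 CPM with Ocoxin, which did not overlap but missed the threshold (log2 fold change 0.25, edgeR adjusted p = 0.17). It passed there with the replicate number as a block (edgeR adjusted p = 0.0217), although the COAD libraries were not judged to be paired.

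SLC3A2 (ENSG00000168003, chr11:62856102-62888875, plus strand), the heavy chain that also serves other amino acid transporters, was upregulated in PAAD. The PAAD controls had 245, 254 and 225 CPM and the Ocoxin libraries 343, 336 and 315 CPM, with a log2 fold change of 0.46 (SE 0.0589, edgeR adjusted p = 0.000167). Every treated library lay well above every control. In TNBC it had 365, 381 and 319 CPM in controls and 404, 395 and 397 CPM with Ocoxin, and in PRAD 155, 174 and 148 CPM against 210, 194 and 175 CPM. Neither passed the threshold (log2 fold change 0.17 and 0.28, edgeR adjusted p = 0.055 and 0.107), although neither pair of groups overlapped. With the replicate number as a block, both passed (edgeR adjusted p = 0.000305 in TNBC and 0.03 in PRAD). TNBC also passed with DESeq2 (adjusted p = 0.0224), without the filter on low counts (0.000555) and without control replicate 2 (0.0249), and PRAD with all 24 libraries in 1 edgeR fit (0.0226) and after removal of the length and GC trend (0.0339). In COAD the groups overlapped, with 379 to 405 CPM in controls and 398 to 421 CPM with Ocoxin (edgeR adjusted p = 0.457).

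**Figure D2:**
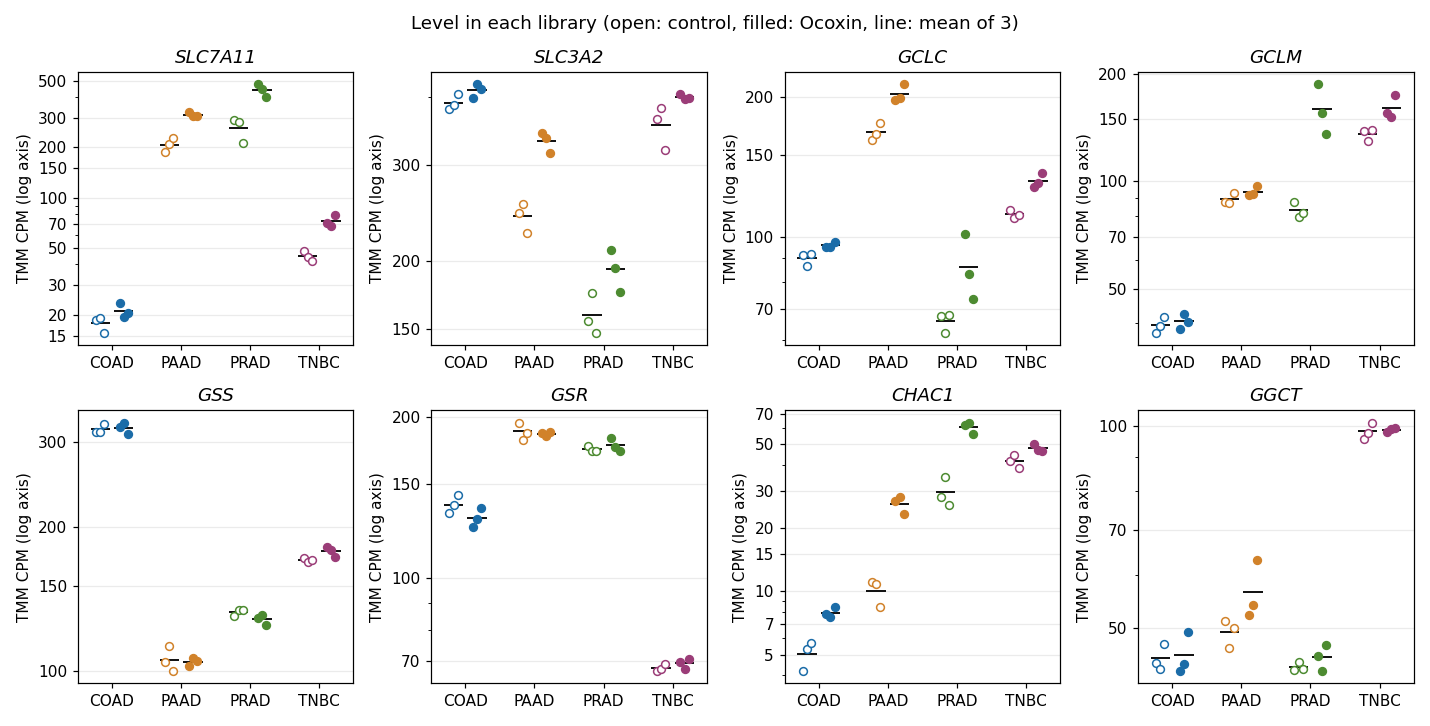
TMM-scaled CPM (log axis) of each gene in each of the 24 libraries, with open points for controls, filled points for Ocoxin and a line at the mean of 3. The CHAC1 groups are apart in all 4 cell lines, and GCLM rises most in PRAD, from about 83 to 160 CPM on average.

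Both subunits of glutamate-cysteine ligase were upregulated in TNBC, whereas GCLC alone passed in PAAD and GCLM alone in PRAD. GCLC (ENSG00000001084, chr6:53497341-53616970, minus strand) had 161, 167 and 175 CPM in PAAD controls and 197, 199 and 213 CPM with Ocoxin, a log2 fold change of 0.27 (SE 0.0567, edgeR adjusted p = 0.00729). In TNBC it had 114, 110 and 111 CPM in controls and 128, 131 and 137 CPM with Ocoxin, a log2 fold change of 0.24 (SE 0.0413, edgeR adjusted p = 0.0016). The treated libraries of PRAD were spread more widely, at 101, 83.0 and 73.6 CPM against 67.5, 62.1 and 67.8 CPM in controls. That log2 fold change of 0.39 (SE 0.111) did not pass with edgeR (adjusted p = 0.106). It passed with the replicate number as a block (0.044), with DESeq2 (0.0444) and with all 24 libraries in 1 edgeR fit (0.0034). In COAD the groups were 86.3 to 91.9 CPM in controls and 94.8 to 97.3 CPM with Ocoxin (log2 fold change 0.09, edgeR adjusted p = 0.406). GCLC shares 6.25% of its exonic bases with a lncRNA on its own strand and 0.08% with GCLC-AS1.

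GCLM (ENSG00000023909, chr1:93885205-93909456, minus strand) rose most in PRAD, where the controls had 87.8, 79.7 and 81.5 CPM and the Ocoxin libraries 187, 155 and 136 CPM. Its log2 fold change there was 0.94 (SE 0.11, edgeR adjusted p = 0.0147). All treated libraries lay far above the controls, and the highest of them, Ocoxin replicate 1, was also the highest PRAD library for SLC7A11, SLC3A2, GCLC and GSR. The call was lost without control replicate 2 (adjusted p = 0.077), without control replicate 3 (0.0531) and without Ocoxin replicate 2 (0.088). In TNBC GCLM had 138, 130 and 139 CPM in controls and 156, 152 and 175 CPM with Ocoxin, a log2 fold change of 0.25 (SE 0.0541, edgeR adjusted p = 0.00743). The PAAD groups overlapped at 87.1 to 92.9 CPM and 91.7 to 97.1 CPM, and so did the COAD groups at 37.6 to 41.6 CPM and 38.6 to 42.3 CPM (edgeR adjusted p = 0.517 and 0.871).

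The last enzyme of synthesis and the reductase differed by little. GSS (ENSG00000100983, chr20:34928430-34955817, minus strand) had log2 fold changes of 0.06 in TNBC, -0.05 in PRAD, -0.01 in PAAD and 0.01 in COAD, with edgeR adjusted p values of 0.28, 0.485, 0.923 and 0.94. The widest of its 95% intervals ran from -0.14 to 0.11 on the log2 scale, in PAAD. GSR (ENSG00000104687, chr8:30678061-30727926, minus strand) had 0.03, 0.03, -0.01 and -0.08 in the same order, with adjusted p values of 0.681, 0.729, 0.91 and 0.469. The bound of its 95% intervals farthest from 0 was -0.19, in COAD. Control and Ocoxin libraries overlapped for GSR in every cell line and for GSS in all but TNBC, where they had 169 to 172 CPM and 173 to 181 CPM.

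CHAC1 (ENSG00000128965, chr15:40952962-40956519, plus strand), which degrades glutathione, was upregulated in all 4 cell lines, and no other gene of the 8 was in the fits without a replicate block. In PAAD the controls had 11.1, 10.8 and 8.41 CPM and the Ocoxin libraries 26.9, 28.2 and 23.4 CPM, a log2 fold change of 1.38 (SE 0.11, edgeR adjusted p = 1.23e-06), higher than that of 99.9% of the genes tested there. The PRAD controls had 28.0, 35.0 and 25.7 CPM and the Ocoxin libraries 62.0, 63.5 and 55.9 CPM, a log2 fold change of 1.03 (SE 0.113, edgeR adjusted p = 0.0126). The fold change was 2.60 in PAAD and 2.04 in PRAD. In COAD the controls had 4.18, 5.32 and 5.66 CPM, below those of PAAD and TNBC, and the Ocoxin libraries 7.81, 7.55 and 8.39 CPM. The log2 fold change in COAD was 0.65 (SE 0.136, edgeR adjusted p = 0.0116). In TNBC the controls had 41.7, 44.3 and 38.5 CPM, above those of PAAD and COAD, and the Ocoxin libraries 50.5, 47.1 and 46.4 CPM. The log2 fold change in TNBC was 0.21 (SE 0.0611, edgeR adjusted p = 0.0283). The groups did not overlap in any of the 4 cell lines. Leaving out 1 library ended the call of COAD without control replicate 1 (adjusted p = 0.0887) or Ocoxin replicate 2 (0.0502), that of PRAD without Ocoxin replicate 2 (0.088), and that of TNBC without control replicates 1 or 3 (0.0792 and 0.101) or Ocoxin replicates 1 or 2 (0.132 and 0.0674). The TNBC call was also lost with all 24 libraries in 1 fit (0.184).

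GGCT (ENSG00000006625, chr7:30496621-30504844, minus strand), the other cyclotransferase, passed in no cell line. Its log2 fold change was 0.20 in PAAD (SE 0.0762, edgeR adjusted p = 0.127), where the controls had 51.3, 46.7 and 50.1 CPM and the Ocoxin libraries 52.4, 54.2 and 63.2 CPM. These groups did not overlap, and the difference passed with the replicate number as a block (edgeR adjusted p = 0.00702). It also passed after removal of the length and GC trend (edgeR adjusted p = 0.00247). In COAD, PRAD and TNBC the groups overlapped, with log2 fold changes of 0.02, 0.05 and 0.01. GGCT shares 27.61% of its exonic bases with another protein-coding gene on its strand, so its level is uncertain.

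Whether the response itself differed between cell lines was tested with the interaction of treatment and cell line over all 24 libraries. Over the 4 cell lines, the responses of CHAC1 (edgeR adjusted p = 3.28e-06), GCLM (4.65e-06) and SLC3A2 (0.0126) differed, 3 of 8 where 10.9% of 24631 genes did. That of SLC7A11 did not pass (edgeR adjusted p = 0.151). With PRAD left out, whose libraries were counted in another run and treated with the strongest mixture, GCLM no longer passed (0.166) and SLC7A11 did (0.0282). CHAC1 responded more in PAAD than in TNBC by 1.18 on the log2 scale (95% interval 0.89 to 1.46, edgeR adjusted p = 8.05e-07) and less in COAD than in PAAD by 0.73 (interval of COAD minus PAAD -1.07 to -0.39, adjusted p = 0.0095). SLC3A2 responded less in COAD than in PAAD by 0.38 (interval of COAD minus PAAD -0.56 to -0.21, edgeR adjusted p = 0.00947). Its difference between PAAD and TNBC was 0.30 (interval 0.13 to 0.48, adjusted p = 0.0395) and was lost with DESeq2 size factors (0.0609) and with a minimum of 10 counts in every library (0.0575). It was also lost when 1 library was left out, namely PAAD control replicate 3 (adjusted p = 0.123), PAAD Ocoxin replicate 1 (0.103) or 2 (0.0936), TNBC control replicate 1 (0.102) or 2 (0.139), or TNBC Ocoxin replicate 1 (0.0654), 2 (0.0863) or 3 (0.0636). For COAD minus TNBC, 0 of 8 genes passed with edgeR and 2 had an unadjusted p under 0.05, namely CHAC1 with 0.45 (adjusted p = 0.0808) and SLC7A11 with -0.43 (adjusted p = 0.104). With the replicate number as a block, the CHAC1 difference passed (edgeR adjusted p = 0.00604). With PRAD left out, that of SLC7A11 passed instead (-0.44, edgeR adjusted p = 0.0169). The share of all genes that passed was 3.44% for COAD minus PAAD (2 of 8 here), 6.78% for COAD minus TNBC and 4.01% for PAAD minus TNBC (2 of 8 here). For SLC7A11 the difference between PAAD and TNBC was -0.09 with an interval from -0.38 to 0.20.

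In control libraries of COAD, PAAD and TNBC, the span from the lowest to the highest cell line was widest for SLC7A11, the exchanger, and then for CHAC1, the breakdown enzyme. In CPM per kb of exons, SLC7A11 was at 1.67 ± 0.16 in COAD, 4.69 ± 0.297 in TNBC and 23 ± 2 in PAAD (mean ± SD, n = 3), 13.7-fold higher in PAAD than in COAD (edgeR adjusted p = 1.29e-20) and 4.9-fold higher than in TNBC (2.83e-17). CHAC1 was ordered otherwise, at 2.23 ± 0.359 in COAD, 5.22 ± 0.782 in PAAD and 20.4 ± 1.44 in TNBC, 9.14-fold higher in TNBC than in COAD (edgeR adjusted p = 2.11e-16) and 3.91-fold higher than in PAAD (3.98e-13). PAAD thus had the highest level of the exchanger among these 3 cell lines and TNBC that of the breakdown enzyme. Large differences were common between these cell lines. The SLC7A11 differences of PAAD from COAD and TNBC exceeded those of 84.5% and 77.9% of all genes tested. The CHAC1 differences of TNBC from COAD and PAAD exceeded those of 79.5% and 74.5%. The PRAD controls, scaled apart and counted in another run, had 27.2 ± 4.42 for SLC7A11 and 14.4 ± 2.35 for CHAC1, and they entered no test.

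**Figure D3:**
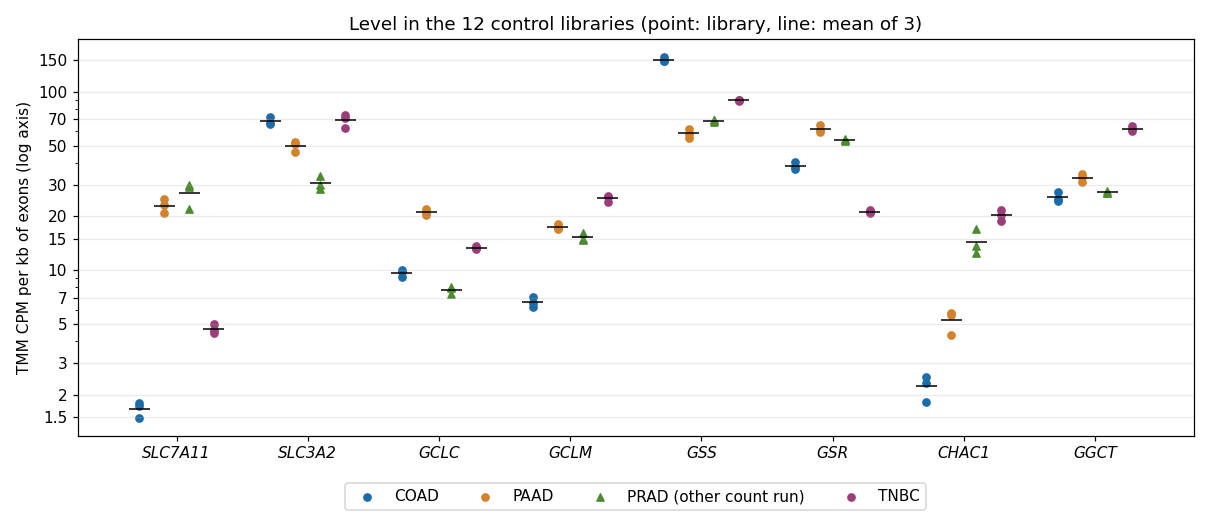
Level of each gene per kb of exons (TMM-scaled CPM, log axis) in the 12 control libraries, with a point per library and a line at the mean of 3; triangles mark PRAD, whose reads were counted in another run. Over COAD, PAAD and TNBC, SLC7A11 spans 1.67 to 23 and CHAC1 2.23 to 20.4, while SLC3A2 lies between 49.6 and 69.3. PRAD, scaled apart, is at 27.2 for SLC7A11, 14.4 for CHAC1 and 30.7 for SLC3A2.

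The ligase subunits followed different orders. GCLC was highest in PAAD (21.1 ± 0.756 CPM per kb), then TNBC (13.3 ± 0.298) and COAD (9.63 ± 0.402), and GCLM was highest in TNBC (25.3 ± 0.941), then PAAD (17.5 ± 0.548) and COAD (6.61 ± 0.412). GSS was highest in COAD, at 151 ± 5.18 against 89.6 ± 0.841 in TNBC and 58.4 ± 3.65 in PAAD, and it led the 8 genes in COAD, PRAD and TNBC. GSR was highest in PAAD, at 62 ± 2.62 against 38.5 ± 1.93 in COAD and 21.2 ± 0.334 in TNBC. GGCT was highest in TNBC, at 62.2 ± 1.81 against 32.9 ± 1.69 in PAAD and 25.6 ± 1.49 in COAD. SLC3A2 was at 69.3 ± 6.25 in TNBC and 68.3 ± 3.11 in COAD, which did not differ beyond their spread (edgeR adjusted p = 0.767, difference -0.02 on the log2 scale), and at 49.6 ± 3.24 in PAAD. In the PRAD controls SLC3A2 was at 30.7 ± 2.68, GCLC at 7.77 ± 0.377, GCLM at 15.3 ± 0.785, GSS at 69 ± 1.03, GSR at 53.8 ± 0.737 and GGCT at 27.4 ± 0.427 CPM per kb. Of the 8 genes, 8, 7 and 8 differed for COAD minus PAAD, COAD minus TNBC and PAAD minus TNBC, shares close to the 78.6%, 82.8% and 77.1% of 19930 genes that differed between the control libraries of these cell lines.

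The ratio of partner transcripts per exonic length described the balance within each library. The length was that of all exons counted for a gene, so equal values need not mean equal numbers of transcripts. SLC3A2 per SLC7A11 had a control median of 37.8 in COAD (37.6 to 48.2), 14.2 in TNBC (14.1 to 16), 2.26 in PAAD (1.84 to 2.42) and 1.15 in PRAD (0.994 to 1.29). With Ocoxin the medians were 37.4, 10.6, 1.95 and 0.813, and the groups were apart in TNBC and PRAD and overlapped in COAD and PAAD. GCLC per GCLM had control medians of 0.53 in TNBC, 0.499 in PRAD, 1.21 in PAAD and 1.41 in COAD. With Ocoxin it lay higher in PAAD (1.37 to 1.40 against 1.18 to 1.23 in controls) and lower in PRAD (0.343 to 0.346 against 0.492 to 0.532), and the groups overlapped in COAD and TNBC. CHAC1 per GGCT had control medians of 0.338 in TNBC, 0.502 in PRAD, 0.167 in PAAD and 0.0925 in COAD and Ocoxin medians of 0.369, 1.06, 0.398 and 0.132, and each treated library of a cell line lay above its controls. These ratios are descriptions, since an exact permutation test of 3 against 3 libraries cannot go below p = 0.1. GGCT shares exonic bases with another gene, as given above.

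**Figure D4:**
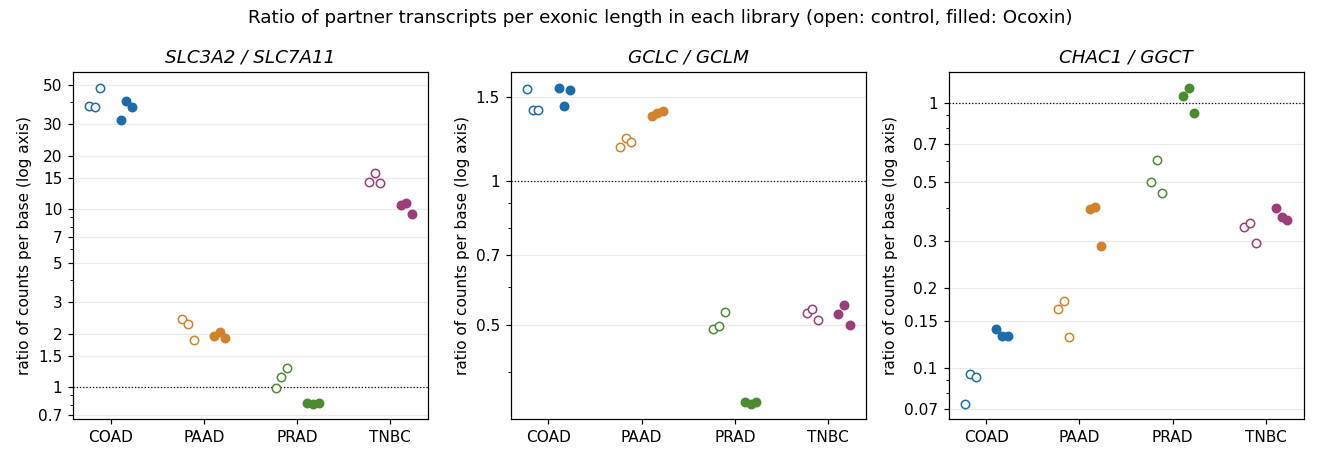
Ratio of counts per exonic base of 2 partner genes (log axis) in each library, with open points for controls and filled points for Ocoxin. The dotted line marks equal counts per exonic base. SLC3A2 per SLC7A11 runs from about 38 in COAD to about 1 in PRAD, GCLC per GCLM moves up in PAAD and down in PRAD, and CHAC1 per GGCT is higher with Ocoxin in each cell line.

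Other genes of cysteine supply and glutathione use were read from a list of 69 genes, of which 68 were found in the tables and GSTT1 was not analysed here. Of those tested, 15 of 54 were altered in TNBC (27.8%), 2 of 52 in PRAD (3.85%), 13 of 55 in PAAD (23.6%) and 2 of 57 in COAD (3.51%), against 21%, 2.98%, 8.33% and 2.55% of all genes. In PAAD 9 rose and 4 fell, in TNBC 7 rose and 8 fell, in COAD 1 rose and 1 fell, and in PRAD both rose. Their median log2 fold change was -0.04 in TNBC, 0.04 in PRAD, 0.00199 in PAAD and 0.06 in COAD. With the replicate number as a block, 8 of the genes passed in PRAD and 25 in TNBC. The group of peroxidases and glutaredoxins also held GLO1, HAGH and ESD, which belong to neither family. In PAAD 6 genes of this group were altered, with GPX1, GPX8 and GLRX higher and GLRX3, GLO1 and ESD lower.

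SLC1A4, a transporter of neutral amino acids that include cysteine, was the gene of this list altered in at least 3 cell lines. It rose from 3.73 ± 0.265 to 8.19 ± 1.02 CPM in PAAD (log2 fold change 1.13, SE 0.133, edgeR adjusted p = 6.72e-05), and by log2 fold changes of 0.54 in PRAD (adjusted p = 0.0165) and 0.42 in TNBC (0.000136). In COAD it had 16.2 ± 1.21 and 16.7 ± 1.09 CPM (edgeR adjusted p = 0.878). GPX1, a peroxidase that spends glutathione on hydrogen peroxide, rose in COAD from 90 ± 8.17 to 160 ± 12 CPM (log2 fold change 0.83, SE 0.0673, edgeR adjusted p = 1.78e-06) and in PAAD by 0.39 (0.0229). MAT2A, which makes S-adenosylmethionine, fell in COAD from 542 ± 22.9 to 459 ± 23.4 CPM (log2 fold change -0.24, edgeR adjusted p = 0.00964). SLC1A1, which carries glutamate and cysteine, rose in PAAD from 3.78 to 5.65 CPM (log2 fold change 0.58, edgeR adjusted p = 0.0203) and fell in TNBC from 14.3 to 11.2 CPM (-0.36, 0.0457). CTH, which makes cysteine from cystathionine, rose in PRAD from 40.2 to 53.8 CPM (log2 fold change 0.42, edgeR adjusted p = 0.0296) and in TNBC by 0.34 (0.00653). ABCC5, a pump of organic anions, rose in TNBC from 147 to 192 CPM (log2 fold change 0.39, edgeR adjusted p = 0.000161) and in PAAD by 0.32 (0.00652).

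**Figure D5:**
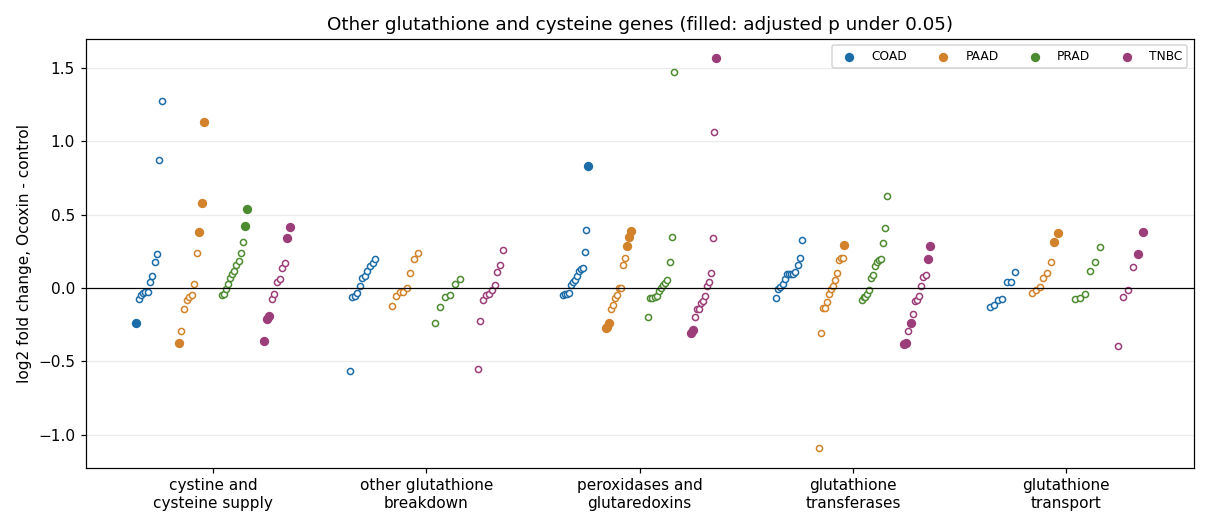
Log2 fold change (Ocoxin minus control, y axis) of the other listed genes tested, by group and cell line, in order of value; filled points have an adjusted p under 0.05. No filled point stands among the other genes of glutathione breakdown, and PAAD and TNBC hold 28 of the 32 filled points.

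By group, glutathione breakdown apart from CHAC1 and GGCT had 0 altered genes of 10, 6, 8 and 11 tested in TNBC, PRAD, PAAD and COAD with edgeR, where 21%, 2.98%, 8.33% and 2.55% of all genes were altered. At an unadjusted p under 0.05 there were 1, 1, 0 and 1, and DESeq2 called 1 gene, GGT1 in TNBC, which was lower with Ocoxin (DESeq2 adjusted p = 0.0473). Cysteine supply had 5 altered genes of 11 in TNBC, 2 of 13 in PRAD, 4 of 11 in PAAD and 1 of 12 in COAD. In TNBC SLC1A4 and CTH were among those that rose and SLC1A1 and AHCY among those that fell, and in PAAD SLC1A4, SLC1A1 and SLC1A5 rose while SLC1A3 fell. The glutathione transferases had 1 of 14 in PAAD, PTGES, which rose, and 5 of 13 in TNBC, where GSTM4 and GSTO2 rose and GSTO1, MGST2 and MGST3 fell. Glutathione transport had 2 altered genes that rose in PAAD, ABCC3 and ABCC5, and 2 in TNBC, ABCC1 and ABCC5. The altered genes of the peroxidase and glutaredoxin group in TNBC were GPX7, which rose at under 1 CPM, and GLRX3 and GLO1, which fell. These names, and 3 further genes, were chosen after their values were seen. GLO1, which clears methylglyoxal with glutathione, fell in PAAD from 199 to 166 CPM (log2 fold change -0.27, edgeR adjusted p = 0.00947) and in TNBC from 179 to 146 CPM (-0.29, 0.000193). GPX4, which reduces lipid hydroperoxides with glutathione, had log2 fold changes of -0.10, -0.000617, 0.00199 and 0.14 in TNBC, PRAD, PAAD and COAD, and its lowest edgeR adjusted p was 0.262. GSTP1, a transferase that is often silenced in prostate cancer, had 0.0363 CPM in PRAD controls and 589, 575 and 394 CPM in those of COAD, PAAD and TNBC, and it did not pass the filter in PRAD.

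Lists of 6 genes each of the ATF4 and NRF2 branches were set beside the 8 genes. The study had already reported TRIB3, SESN2, NQO1, TXNRD1 and HMOX1, and CHAC1 of the 8, as altered in all 4 cell lines. The lists were chosen with earlier results of these data known. The counts below were therefore partly fixed in advance and are a description only. Of the ATF4 list (ATF4, DDIT3, ATF3, TRIB3, ASNS and SESN2), 3 rose in TNBC (DDIT3, TRIB3 and SESN2), where ATF3 fell, 3 in PRAD (DDIT3, ATF3 and TRIB3), 3 in PAAD (TRIB3, ASNS and SESN2) and 2 in COAD (TRIB3 and SESN2). Of the NRF2 list (NFE2L2, KEAP1, NQO1, TXNRD1, SRXN1 and HMOX1), 3 of 5 rose in TNBC, 3 of 5 in PRAD, 2 of 6 in PAAD and 3 of 6 in COAD, namely NQO1 and TXNRD1 in each and HMOX1 in all but PAAD. HMOX1 in PAAD had a log2 fold change of 0.69 and just missed the threshold (edgeR adjusted p = 0.0521). With DESeq2, 3 genes of the ATF4 list rose in TNBC, 4 in PRAD, 4 in PAAD and 3 in COAD. DESeq2 also called 3 genes of the NRF2 list higher in each cell line. Of all genes tested, 9.65% rose in TNBC, 2.4% in PRAD, 4.72% in PAAD and 1.47% in COAD with edgeR.

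The genes whose level moved most like that of CHAC1 over the 24 libraries, after the mean of each cell line was removed, were SLC6A9 (Pearson r = 0.942), TRIB3 (0.931) and SLC3A2 (0.912). For GCLM they were MB21D2 (0.961), NQO2 (0.955) and AKR1C2 (0.948), and for SLC7A11 they were TACC2 (0.955), SUPT7L (0.926) and SLC30A1 (0.925). These are the highest of 10279 genes, the points share cell line and treatment, and the values are given as a description only.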

How the data were processed

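The deposited values are raw counts of reads per gene that the authors made from mRNA libraries by trimming with fastp, alignment to hg38 with STAR, removal of PCR duplicates with picard and counting on exons with featureCounts 2.0.3, per the file headers without strand. The PRAD reads were counted apart, with the paired-end option off. Neither run counted pairs as 1 fragment. Groups were taken from the letters C and O of the titles, since the labels give the dilution for controls as well.

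In R 4.3.3, low counts were filtered with filterByExpr and libraries scaled by TMM, and edgeR 4.0.16 fitted every cell line by itself with its robust quasi-likelihood model (two-sided F-test, Benjamini-Hochberg over all genes tested, threshold 0.05). The difference of the response was an interaction over 24 libraries, and baseline levels were compared over the 9 controls of COAD, PAAD and TNBC. On simulated data a 2-fold change was recovered for 87.9% of changed genes in TNBC, 92.4% in PRAD, 90.9% in PAAD and 86.4% in COAD, and a 1.25-fold change for 44.8%, 34.3%, 20.9% and 37.3%. For the difference of response between PAAD and TNBC these shares were 60.6% and 4.48%. The simulated libraries were independent, every gene had the same relative spread, and only 66 or 67 genes were changed per fold change. The shares recovered in the real libraries may therefore differ. Depth is given as total counts, and no pair of libraries differed by as little as sampling noise. The alternatives were DESeq2 1.42.0, its size factors, other filters, 1 fit of all libraries, a replicate block, halved counts, a correction of PRAD for reads with the same start, removal of a length trend, a 1.5-fold minimum and each library left out. Removal of a trend with length and GC content was added after the data were seen.

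The replicate numbers of the titles were checked over genes of at least 10 CPM. The deviations of same-numbered libraries from their group means correlated at 0.314 to 0.615 in PAAD, 0.176 to 0.605 in PRAD and 0.285 to 0.629 in TNBC, which were judged to be paired, and at 0.0813 to 0.503 in COAD, which was not. The main fits nevertheless left the replicate numbers out in every cell line. Pairing entered only through the replicate block, which was an alternative. Over all genes tested the lowest values were 0.0235, 0.0912, 0.062 and -0.00513.

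The 8 genes and the lists were chosen with earlier results of these data known. All 8 genes were named, and of the other 69 those altered in at least 3 cell lines, and per cell line the 2 that were altered most among those of at least 1 CPM without overlap of the groups. Symbols were matched for 56948 of 58051 identifiers. The values of 1 listed gene are not reported here.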

Additional observations from a re-analysis of the deposited data

Results flagged for a closer look

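Because the interaction of treatment and cell line passed its test, 7 differences of response call for a closer look. Over the 4 cell lines these were CHAC1 (edgeR adjusted p = 3.28e-06), GCLM (4.65e-06) and SLC3A2 (0.0126). Between 2 cell lines they were CHAC1 in PAAD minus TNBC (edgeR adjusted p = 8.05e-07) and COAD minus PAAD (0.0095), and SLC3A2 in COAD minus PAAD (0.00947) and PAAD minus TNBC (0.0395). The last passed under 19 of 29 alternatives, and leaving out single libraries gave adjusted p-values from 0.00441 to 0.139. Among COAD, PAAD and TNBC, the control level of CHAC1 was lowest in COAD and highest in TNBC. The dilution of Ocoxin was 500-fold in PAAD and 700-fold in COAD and TNBC. The part of either in these differences was not tested. For GCLM, PRAD also differed in the dilution (50-fold) and in the run in which its reads were counted, which cannot be told apart from the cell line, and without PRAD the difference did not pass (0.166).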

How the results depend on the processing

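With a minimum change of 1.5-fold, the altered genes of the 8 were 2 in PAAD and 1 in TNBC, and of the other listed genes 1 in TNBC, 0 in PRAD, 1 in PAAD and 1 in COAD, where edgeR without this minimum gave 15, 2, 13 and 2. With the replicate number as a block, 2 of the 8 genes passed in COAD, where SLC7A11 was gained although its libraries were not paired (edgeR adjusted p = 0.0217), and 5 in PRAD, and of the listed genes 6 in COAD, 8 in PRAD and 25 in TNBC. The block gained those calls and the ones given beside the results, 6 in all, and changed no other call of the 8 genes. PRAD had 5 of the 8 genes and 5 listed genes with all 24 libraries in 1 fit, and 5, 5 and 9 listed genes without the filter, after removal of the length trend and after removal of the length and GC trend. Of response differences, 1 gene passed for COAD minus TNBC without PRAD, SLC7A11, and another with the block, CHAC1. For PAAD minus TNBC, 1 gene passed with DESeq2 size factors and with at least 10 counts.

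Leaving out 1 library gave 3 to 5 of the 8 genes in TNBC, 0 to 3 in PRAD, 4 in PAAD and 0 to 1 in COAD, and of the listed genes 10 to 17, 0 to 3, 6 to 14 and 1 to 3. It gave 3 to 4 genes with a difference over the cell lines, 0 to 1 for COAD minus TNBC and 1 to 2 for PAAD minus TNBC. In PRAD 0 of the 8 genes passed when Ocoxin replicate 2 was left out and 1 when control replicate 2 was, and 0 listed genes without either of these or control replicate 3. COAD had 0 of the 8 without control replicate 1 or Ocoxin replicate 2. PAAD had 6 listed genes without Ocoxin replicate 1 and 8 without Ocoxin replicate 2.

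No called value changed its sign. Log2 fold changes near 0 did, after removal of the length trend to -0.0312 (GSS) and -0.0208 (GGCT) in COAD, 0.0009 (GSS) in PAAD, -0.054 (GSR) and -0.0207 (GGCT) in PRAD, and after removal of the length and GC trend to -0.0333 and -0.0066 for GSS and GGCT in COAD, 0.0021 for GSR in PAAD, and -0.0528 and -0.0184 for GSR and GGCT in PRAD. With all libraries in 1 fit they were -0.0035 for GSR in PRAD and -0.0024 for GGCT in TNBC. With 1 library left out, the log2 fold changes that changed sign ranged from -0.0337 to 0.061 for GGCT in COAD, -0.0428 to 0.0144 for GSR in PAAD, -0.0556 to 0.0301 for GSS in PAAD and -0.0089 to 0.0309 for GGCT in TNBC, the response differences from -0.0383 to 0.0627 for GGCT in COAD minus TNBC, -0.0711 to 0.0094 for GCLM and -0.0149 to 0.0656 for GSS in COAD minus PAAD, and the baseline difference of SLC3A2 in COAD minus TNBC from -0.1013 to 0.0224. The cause of these shifts was not tested. Halved counts and the correction of PRAD for reads with the same start changed no call of the 8 genes.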
